A study of Mus musculus with 2 samples.

Results

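The spots described here are ependymal spots outside the choroid plexus, 60 of 5561 kept spots in 2 sections of mouse brain. The assay, 10x Visium, captures RNA from tissue laid over a grid of barcoded spots, and 1 spot can cover several cells of different types. Both sections were fresh-frozen wildtype C57BL/6 brain, cut 10 µm thick and labelled ZT12, as replicates 1 and 2 of 1 group, and they are called sections 1 and 2 below. C57BL/6 is a common inbred mouse strain, and the labels name no treatment, no age and no separate animals. The p-values thus rest only on these 2 sections. The spread between them may be technical, and it was estimated across genes and not for each gene alone. The study asked how regions of the brain differ, and the comparisons below are between spots of the same section. Members were chosen from their own RNA. Spots with at least 500 unique molecular identifiers (UMIs, each counting 1 captured RNA molecule) were scored by the mean of ln(1 + UMIs per 10000) over a set of genes. In each section the 30 spots with the highest score over 6 choroid plexus genes (Folr1, Kl, Clic6, Kcnj13, Calml4 and Aqp1) were taken out. They are called choroid plexus spots. The 30 of the remaining spots with the highest score over 5 ependymal genes (Ccdc153, Tmem212, Foxj1, Dynlrb2 and Rarres2) became the members, and they were set against all other kept spots of their section, the choroid plexus spots included.

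Ependymal cells form the epithelium that lines the brain ventricles. Most carry a tuft of motile cilia whose beating moves cerebrospinal fluid. A motile cilium is built on an axoneme, a ring of doublet microtubules around a central pair, with dynein arms that drive the beat and radial spokes that coordinate it. Its genes are switched on in multiciliated cells by Foxj1 and by factors of the RFX family. The choroid plexus epithelium faces the same fluid, which it secretes, and lies against the ependyma at its attachment to the ventricle wall.

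Section 1 held 58662871 UMIs in 3167 spots and section 2 held 55851559 UMIs in 2533 spots, of which 3030 and 2531 were kept. The members held 330057 UMIs in section 1 and 425842 UMIs in section 2. Their median was 10385.5 and 14022.5 UMIs per spot, against 18202 and 21634 UMIs in all other spots, so the members were the shallower group in both sections. Mitochondrially encoded genes took 13.4% and 12.9% of the members' UMIs and 14.9% and 14.3% of those of all other spots. The sections were processed with different versions of Space Ranger according to the file headers, so version and section cannot be told apart. Of the spot barcodes, 1965 occurred in both sections, as the arrays share a set of barcodes, but no barcode belonged to members of both.

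The 5 ependymal genes chose the members, so their levels describe the choice and carry no test. Ccdc153, a coiled-coil gene expressed in ependyma, stood at 145 and 186 CPM (a UMI count scaled by the total of its sum) in the members of sections 1 and 2, against 3.29 and 4.78 CPM in all other spots. Tmem212, a membrane protein gene, stood at 121 and 124 CPM in the members, against 1.68 and 2.003 CPM in all other spots. Foxj1, the transcription factor of motile cilia, stood at 97.0 and 108 CPM, against 8.85 and 8.44 CPM. All 3 were higher in the members of both sections. Dynlrb2, a dynein light chain gene, was at 57.6 and 77.5 CPM in the members and 1.89 and 2.80 CPM in all other spots. Rarres2, which encodes the secreted protein chemerin, was at 203 and 235 CPM in the members and 15.9 and 14.8 CPM in all other spots. These 2 genes were likewise higher in the members of both sections. When each of the 5 genes was left out in turn and the 30 highest spots were chosen on the other 4, the gene left out was still 7.23-fold (Foxj1, section 1) to 56.0-fold (Tmem212, section 1) as high in those spots as in the rest, and 23 to 28 of the 30 members were chosen again. These spots largely overlap the members and the folds are given as a description.

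**Figure D1:**
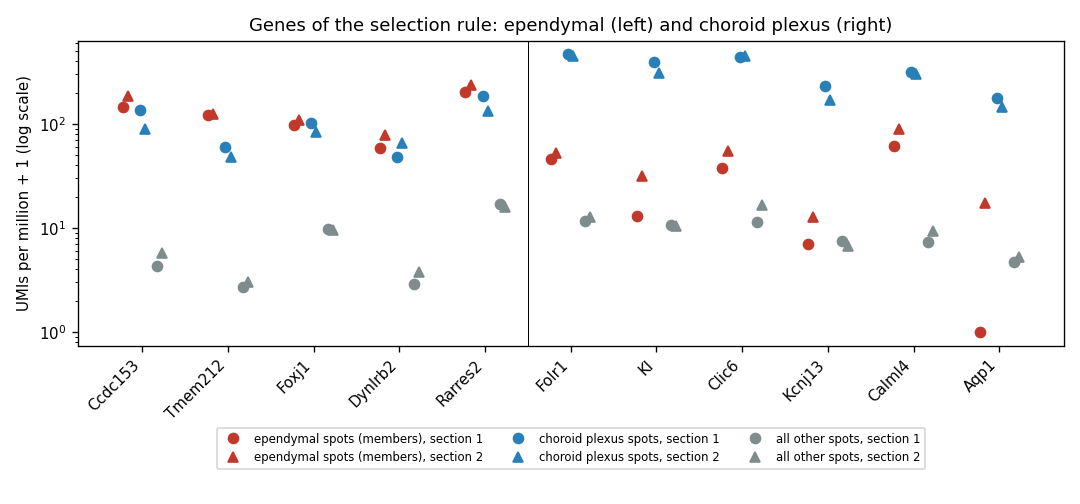
Levels of the 11 genes of the selection rule, as CPM plus 1 on a log scale, in the members, the choroid plexus spots and all other spots of each section (1 point per section and group, no error bars). The 5 ependymal genes on the left lie above the other spots in both the members and the choroid plexus spots, with Tmem212 at 121 and 124 CPM in the members against 58.5 and 47.1 CPM in the choroid plexus spots, whereas the 6 choroid plexus genes on the right are highest in the choroid plexus spots.

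Most further ependymal genes tested, given below, were higher in the members too, but RNA of the ependymal genes was not limited to the members. The choroid plexus spots carried Ccdc153 at 134 and 88.3 CPM and Foxj1 at 100.03 and 82.4 CPM. In section 1 the members held 20% of all Ccdc153 UMIs and the choroid plexus spots 29.6%. In section 2 the members held 23.0% and the choroid plexus spots 17.4%. The choroid plexus spots taken out thus also held RNA of these ependymal genes. Whether it came from ependymal cells or from the choroid plexus epithelium was not tested. The members in turn were not free of RNA of the choroid plexus genes, and its source was not tested either. Folr1, the folate receptor gene of that epithelium, stood at 45.4 and 51.7 CPM in the members, against 464 and 444 CPM in the choroid plexus spots, and at 10.6 and 11.7 CPM in all other spots. Calml4 stood at 60.6 and 89.2 CPM in the members, against 317 and 302 CPM in the choroid plexus spots. Aqp1, a water channel gene, had 0 UMIs in the members of section 1, a count that allows up to 3, and 7 UMIs in those of section 2. Kcnj13, a potassium channel gene, had 2 and 5 UMIs in the members, which is 6.06 and 11.7 CPM against 6.52 and 5.76 CPM in all other spots. Kl was at 12.1 and 30.5 CPM in the members, against 9.57 and 9.42 CPM in all other spots.

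The choice rested on few molecules per spot. Members of section 1 held 1 to 23 UMIs of the 5 genes together, with a median of 5, and those of section 2 held 2 to 28, with a median of 8. In section 1, 3 members were chosen on 1 UMI each, and the shallowest member had 847 UMIs in all, against 4980 in section 2. All 5 genes were detected in 6 members of section 1 and in 11 of section 2. The scores fell without a gap at the last member. In section 1 the last member scored 0.387 (1 UMI of the 5 genes) and the next spot 0.383 (2 UMIs), and in section 2 the last member scored 0.376 (2 UMIs) and the next spot 0.366 (3 UMIs). At least 2 UMIs of the 6 choroid plexus genes were found in 14 members of section 1 and 20 of section 2.

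**Figure D2:**
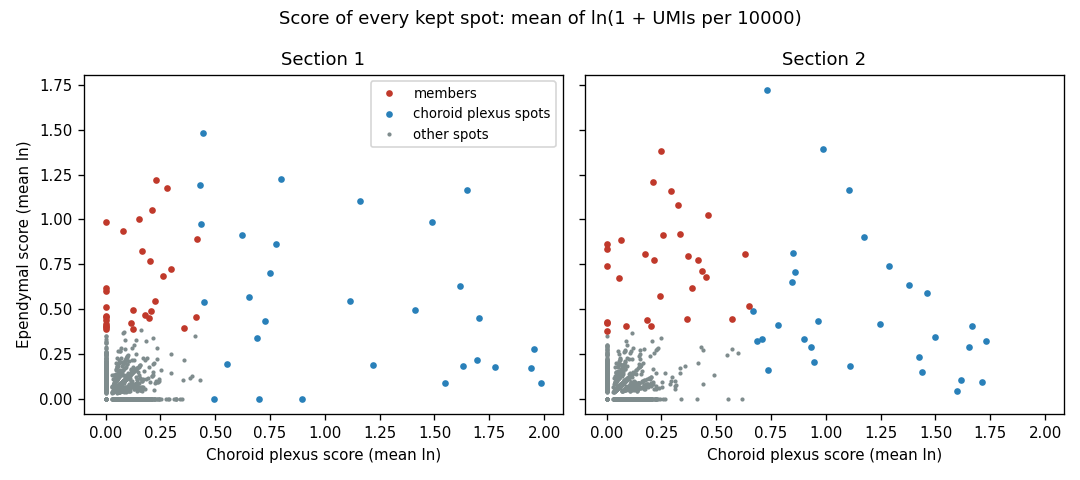
Ependymal score against choroid plexus score of every kept spot, in mean ln(1 + UMIs per 10000), for members, choroid plexus spots and other spots (1 point per spot). The members lie above the mass of other spots with no gap at the lowest member score (0.387 in section 1 and 0.376 in section 2), and several choroid plexus spots score as high for the ependymal genes.

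Genes outside the rule were tested between members and all other spots on UMIs summed per section and group, with edgeR's quasi-likelihood test and the section as a block. The threshold was a p of 0.05 after Benjamini-Hochberg adjustment over all 15776 genes tested, and genes past it are said to be called. Log2 fold changes, given in brackets or after a verb, are members over all other spots, ± SE. The test called 1216 genes (7.71%), of which 595 were higher in the members, 3.77% of those tested, and 621 lower, 3.94%. Without TMM factors, which scale for RNA composition, these counts were 665 and 346. Of the genes called, 402 were at least 2-fold higher (2.55%) and 112 at least 2-fold lower (0.71%), and DESeq2 gave 272 and 5. Of the 402, 397 had the same sign in both sections, and of the 112, 98 did and 14 had 0 UMIs in the members of a section. The fit had 1 residual degree of freedom and took the spread between sections from the genes jointly, with none specific to a gene. A gene could therefore be called where the sections disagree, and values per section are given for that reason. With the members of section 1 or of section 2 left out, in a fit without the block, 22 and 0 genes were called at least 2-fold higher and none lower (1949 and 2310 at an unadjusted p under 0.05).

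Genes of the ciliary axoneme were higher in the members. Of 71 listed genes, 66 were tested and 37 were called higher in the members, with none called lower, against 3.77% of all genes. Their median log2 fold change was 2.75, against -0.09 over all genes tested. Together the 71 genes stood at 1181 and 1466 CPM in members with at least 2 choroid plexus UMIs and at 897 and 961 CPM in the other members, against 268 and 304 CPM in all other spots. The members were chosen for genes of the same cells, so the direction of these changes is not independent of the choice. Low genes could also pass the filter on low counts through the members' own UMIs. A high level there could thus bring them into these counts. Fewer ependymal cells in a spot and less RNA per cell cannot be told apart in these sums. DESeq2 called 33 of the genes higher.

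The dynein arms, the motors of the beat, had 8 of 13 tested genes called higher (median 2.65). Dnali1, an inner arm light intermediate chain (chr4:125055339-125065657, RefSeq on GRCm38.p6, as all positions below), was at 30.3 and 49.3 CPM in the members, against 1.39 and 1.48 CPM in all other spots (4.73 ± 0.54, edgeR adjusted p = 1.54e-15). Dnah10, an inner arm heavy chain, was at 18.2 and 23.5 CPM, against 0.617 and 0.505 CPM (5.16 ± 0.87). The heavy chains Dnah6 and Dnah2 rose as well, by 4.16 ± 0.75 and 4.16 ± 0.81. Dnah1, with 18.2 and 23.5 CPM in the members and 7.48 and 11.5 CPM in all other spots, did not pass (adjusted p = 0.176).

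The radial spokes, the nexin link between doublets and the central pair had 15 of 24 genes called higher (median 3.09). Rsph1, a radial spoke head gene (chr17:31255019-31277296), had 26 and 42 UMIs in the members. Its level was 78.8 and 98.6 CPM in the members, against 3.89 and 6.64 CPM in all other spots (3.997 ± 0.31, edgeR adjusted p = 1.36e-34). Both values of the members lay above both of the other spots, with log2 fold changes of 4.31 and 3.78 in sections 1 and 2 taken alone. Iqca, a gene of the nexin link complex also written Iqca1, was at 21.2 and 16.4 CPM in the members, against 0.703 and 0.559 CPM in all other spots (4.82 ± 0.90). Gas8, another subunit of that complex, was at 18.2 and 18.8 CPM in the members and 13.1 and 14.0 CPM in all other spots and did not pass (adjusted p = 0.777).

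The doublet microtubules and their inner proteins had 10 of 19 tested genes called higher (median 2.85). Cfap126 was at 36.4 and 63.4 CPM in the members, against 3.02 and 2.96 CPM in all other spots (4.01 ± 0.42). Enkur, an inner protein of the doublet (chr2:21180731-21205365), was at 45.4 and 37.6 CPM, against 3.12 and 2.54 CPM (3.80 ± 0.47). Cfap161 rose by 4.72 ± 0.71. Cfap20, with 24.2 and 65.8 CPM in the members and 39.6 and 47.7 CPM in all other spots, did not pass, and its sections had opposite signs.

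Of the factors that assemble dyneins in the cytoplasm, 4 of 10 tested were called higher (median 1.35). Of these, Daw1 held 2 and 6 UMIs in the members and Dnaaf1 held 3 and 3. In all other spots Daw1 was at 0.292 and 0.379 CPM and Dnaaf1 at 0.309 and 0.559 CPM. Both passed the filter on low counts only with the members' UMIs. Zmynd10 was at 12.1 and 44.6 CPM in the members, against 3.19 and 4.71 CPM in all other spots (2.79 ± 0.49). Dnaaf3 was at 12.1 and 18.8 CPM, against 1.10 and 1.10 CPM (3.76 ± 0.84). Dnaaf2 did not pass, at 15.1 and 16.4 CPM in the members and 7.60 and 8.23 CPM in all other spots.

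The axoneme level declined with rank by ependymal score, which used none of these genes, within the members but not steadily below them. In section 1 the 71 genes stood at 1597 CPM in the first 10 members, 838 CPM in the next 10 and 587 CPM in the last 10. The 10 spots just below the members stood at 395 CPM, ranks 41 to 60 at 293 CPM, ranks 61 to 100 at 240 CPM and the spots beyond at 258 CPM. In section 2 the members' levels were 1566, 1336 and 970 CPM, and the same lower rank groups stood at 307, 381, 329 and 292 CPM. Every group of members was above every lower rank group in both sections. Single members varied widely, from 0 to 31 axoneme UMIs in section 1 (median 11.5) and from 0 to 52 in section 2 (median 17.5), and 3 members and 1 member had none. The choroid plexus spots stood at 1364 and 1196 CPM.

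**Figure D3:**
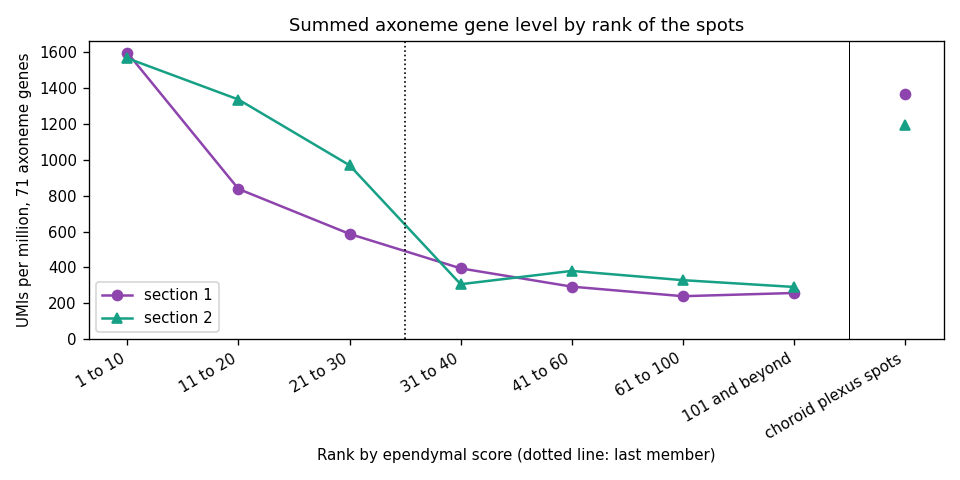
Summed level of the 71 axoneme genes, in CPM, by rank of the spots in the ependymal score, and in the choroid plexus spots on the right (1 point per section, no error bars). The level is highest in the first 10 members (1597 and 1566 CPM) and lies at 240 to 395 CPM in every rank group below the members.

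Promoters of these genes were read for the letters of the sites that RFX and forkhead factors are known to bind. Windows of 250 bases before to 50 bases after the gene start were found in RefSeq (GRCm38.p6) for 63 of the 76 axoneme genes and rule markers, and both strands were searched. The full RFX X-box, a palindrome, lay in 2 of the 63 (3.17%) and in 0.529% of the 27025 genes with a window. The shorter X-box motif GTTGCCA, which can also lie inside the full one, was found in 16 of the 63 (25.4%), against 5.03% of all genes. The forkhead letters GTAAACA were found in 2 of the 63 (3.17%), against 4.05% of all genes. A match is a description of the letters and not of binding. Among called genes without the full X-box, the shorter motif started after the gene start in Zmynd10, Spag8 and Dnah10. In Tekt1, Cfap161, Mns1 and Hydin it started before the gene start. The 3 windows below are those of Iqca, the only called gene with the full X-box, and of Tekt1 and Cfap161, inner proteins of the doublet with the shorter motif that were chosen after the matches were seen. Starts are those the sequence table gives, 1 or more a gene, and for Tekt1 and Cfap161 they lie inside the annotated gene, downstream of its outer 5′ end. The annotated span of Cfap161 is chr7:83775612-83798025. The windows are printed 5′ to 3′ on the strand of the gene, with each match in capitals. Iqca lies at chr1:90153387-90153686 (minus strand), with the match starting 100 bases before the gene start. Tekt1 lies at chr11:72361833-72362132 (minus strand), with the match 15 bases before the start. Cfap161 lies at chr7:83794790-83795089 (minus strand) and holds 3 matches, all in the reverse orientation, the first 67 bases before the start.
Iqca: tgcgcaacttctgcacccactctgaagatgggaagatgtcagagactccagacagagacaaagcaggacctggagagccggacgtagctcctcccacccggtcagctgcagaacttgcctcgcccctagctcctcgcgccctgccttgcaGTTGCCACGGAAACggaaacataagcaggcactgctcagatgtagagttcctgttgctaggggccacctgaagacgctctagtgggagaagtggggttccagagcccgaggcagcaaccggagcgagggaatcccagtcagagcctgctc
Tekt1: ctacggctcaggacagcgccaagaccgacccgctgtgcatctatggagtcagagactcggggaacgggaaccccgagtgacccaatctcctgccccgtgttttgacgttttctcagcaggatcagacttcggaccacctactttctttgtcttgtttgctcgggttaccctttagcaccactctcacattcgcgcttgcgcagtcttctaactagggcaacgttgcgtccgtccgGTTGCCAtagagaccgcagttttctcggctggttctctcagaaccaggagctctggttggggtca
Cfap161: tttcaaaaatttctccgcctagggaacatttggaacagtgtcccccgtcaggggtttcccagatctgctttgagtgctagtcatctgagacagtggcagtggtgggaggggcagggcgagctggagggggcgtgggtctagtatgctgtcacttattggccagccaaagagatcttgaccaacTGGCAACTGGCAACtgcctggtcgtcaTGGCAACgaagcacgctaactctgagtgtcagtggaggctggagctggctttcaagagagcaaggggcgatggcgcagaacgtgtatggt

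The 3 other lists of the ciliary machinery had no gene called by edgeR in the fit described above. Without the block 1 multiciliation regulator was called higher, and without TMM factors 1 gene of intraflagellar transport was. Of 13 multiciliation regulators, which include the RFX factors, none was called (median 0.78, 3 at an unadjusted p under 0.05), and DESeq2 called 1. Rfx3, a factor of ciliated cells, stood at 24.2 and 25.8 CPM in the members and 19.5 and 19.6 CPM in all other spots. Of 26 genes of intraflagellar transport, the traffic that builds cilia of all kinds, none was called by edgeR or DESeq2 (median 0.19, 4 at an unadjusted p under 0.05). Ift20 stood at 130.3 and 148 CPM in the members and 132 and 137 CPM in all other spots. Of 10 genes of the BBSome, a membrane cargo adaptor of cilia, none was called by either tool or had an unadjusted p under 0.05 (median 0.01). These 3 lists summed to 1027 and 1094 CPM (intraflagellar transport), 179 and 160 CPM (regulators) and 242 and 171 CPM (BBSome) in the members. In all other spots the sums were 954 and 962, 118 and 115, and 198 and 182 CPM. The difference between these lists and the axoneme lists was not tested.

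Among further genes known from ependyma, 15 of 19 tested were called higher and none lower (median 3.03). Odf3b, a cilium gene also written Cimap1b, was at 42.4 and 56.4 CPM in the members, against 2.09 and 2.36 CPM in all other spots (4.40 ± 0.46, edgeR adjusted p = 3.86e-19). Hdc, which encodes histidine decarboxylase, was at 36.4 and 21.1 CPM, against 1.08 and 0.92 CPM (4.74 ± 0.69). Ak7, an adenylate kinase of cilia, rose by 5.06 ± 0.68. Of the 4 that did not pass, S100b, a calcium-binding protein also made by astrocytes, was at 318 and 291 CPM in the members and 301 and 199.6 CPM in all other spots (adjusted p = 0.391). Sox9 was at 51.5 and 56.4 CPM in the members and 28.0 and 32.5 CPM in all other spots (adjusted p = 0.0739).

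Tanycytes are ependymal cells of the third ventricle floor that send a long process into the hypothalamus. None of their 13 tested genes was called by edgeR or DESeq2 (median 0.09, 3 at an unadjusted p under 0.05), and Crym stood at 84.8 and 139 CPM in the members and 78.7 and 144 CPM in all other spots. Of 12 genes of the neurogenic niche beside the lateral ventricle, 2 were called higher. Thbs4, which encodes a thrombospondin, was at 39.4 and 25.8 CPM in the members, against 5.37 and 4.24 CPM in all other spots (2.68 ± 0.46). Top2a, a topoisomerase of dividing cells, rose by 4.17 ± 1.09 on 2 and 7 UMIs. In all other spots Top2a was at 0.343 and 0.83 CPM, and it passed the filter on low counts only with the members' UMIs. Sox11, a gene of young neurons, was at 15.1 and 32.9 CPM in the members and 14.9 and 20.2 CPM in all other spots and did not pass. Of 17 genes of planar cell polarity and adhesion, which orient the cilia in a tissue plane, Celsr1 alone was called higher. It was at 21.2 and 18.8 CPM in the members, against 2.47 and 2.44 CPM in all other spots (2.94 ± 0.64). Of all genes tested, 3.77% were called higher, so 1 call among 17 is a result for Celsr1 and not for the list.

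The largest rises among called genes with at least 30 UMIs in the members of each section were led by 2 genes without a common name. Gm19935 (chr8:90816145-90817393) was at 99.98 and 100.98 CPM in the members, against 6.14 and 5.68 CPM in all other spots (4.02 ± 0.29, edgeR adjusted p = 1.93e-39). 1700094D03Rik (chr3:90062808-90068347) was at 90.9 and 122 CPM, against 10.1 and 8.97 CPM (3.42 ± 0.27). Cd24a, a surface glycoprotein used to sort ependymal cells (chr10:43579169-43584265), followed with 112 and 96.3 CPM in the members, against 11.7 and 14.5 CPM in all other spots (2.91 ± 0.26). Vim, the intermediate filament vimentin, was at 188 and 197 CPM in the members, against 50.7 and 30.8 CPM in all other spots (2.23 ± 0.18). Ezr, which links actin to the apical membrane, rose by 1.88 ± 0.22, and the calcium-binding S100a6 by 1.99 ± 0.17. Prelp, a matrix proteoglycan, rose by 2.19 ± 0.23, and the tetraspanin genes Cd82 and Cd9 by 1.61 ± 0.22 and 1.44 ± 0.17. The naming rule admitted only genes with 1 sign in both sections, so the agreement of the sections on these genes follows from it.

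Several secreted, protective and transport genes were higher in the members than in all other spots, though not all of them against the choroid plexus spots, as given below. Of 10 secreted carrier proteins, 4 were called higher (Dbi, Trf, Apod and Clu) and 1 lower. Without the block 1 gene of this list was called higher. Dbi, the acyl-CoA-binding protein, was at 1624 and 1531 CPM in the members, against 541 and 489 CPM in all other spots (1.55 ± 0.12), and 29 and 30 of the 30 members had at least 1 UMI. Clu, the chaperone clusterin, was at 2063 and 2156 CPM in the members, against 1259 and 1373 CPM in all other spots (0.61 ± 0.11). Ptgds, the prostaglandin D synthase of the meninges, had opposite signs in the sections, at -0.51 and 0.87 for sections 1 and 2, and was not called. Of 12 metallothionein and antioxidant genes, 6 were called higher and none lower, among them Mt1 at 2487 and 2158 CPM in the members, against 1489.9 and 1381 CPM in all other spots (0.62 ± 0.11). Without the block none of the 6 passed. Of 12 water, ion and gap junction genes, 3 were called higher, among them the sodium-potassium-chloride carrier Slc12a2 at 194 and 157 CPM in the members, against 98.0 and 99.9 CPM in all other spots (0.74 ± 0.17), and none of the 3 passed without the block. Ifitm3, an interferon-induced membrane protein, rose by 1.86 ± 0.22, and 2 of the 11 interferon and antigen genes were called higher.

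Astrocyte genes were mixed, with 2 of 12 called higher and 3 lower (median -0.20), and none of them passed without the block. Gfap, the filament of reactive and periventricular astrocytes, was at 345 and 235 CPM in the members, against 175 and 121 CPM in all other spots (0.90 ± 0.15). Agt, the angiotensinogen gene of astrocytes, was lower, at 97.0 and 127 CPM in the members against 173 and 178 CPM in all other spots (-0.72 ± 0.18). Slc1a2, the main glutamate carrier, stood at 1151 and 1038 CPM in the members and 1186 and 1029 CPM in all other spots.

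Oligodendrocyte and neuronal genes differed between the groups as well. All 10 oligodendrocyte genes were called higher in the members (median 1.17), also in the members with fewer than 2 choroid plexus UMIs. Without the block 8 were called. Together the 10 genes stood at 33361 and 22581 CPM in the members, against 11434 and 12142 CPM in all other spots, and no gene was at 0. The 10 spots ranked just below the members stood at 30929 and 34435 CPM, so high levels of this list were not particular to the members. The gap between these sums was larger in section 1, where 13 members lay among the top 5% of spots for this list, against 3 in section 2. Opalin, Mal, Litaf and Gsn, which were among the 20 largest rises, followed the same order of sections, with Mal at 1.92 and 0.99 for sections 1 and 2. Whether myelin RNA takes part in the rises of Cd9, Ddr1, Lpar1 or Car2, genes that oligodendrocytes also express, was not tested. Nor was it tested for the carrier genes Trf and Apod.

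Neuronal genes were lower, with 12 of 15 called (median -0.56). Together they stood at 5420 and 6472 CPM in the members, against 8712 and 8656 CPM in all other spots. Nefm, a neurofilament gene, was at 136 and 108 CPM in the members, against 289 and 211 CPM in all other spots (-1.10 ± 0.17). Fam163b had the largest fall by the naming rule, at 48.5 and 39.9 CPM in the members, against 102 and 103 CPM in all other spots (-1.30 ± 0.24). Unc80, Bex1, Ncald and the vesicle genes Rab3c and Rims3 fell by less, with -1.11 ± 0.22 for Unc80 and -0.93 ± 0.20 for Rims3. Gad2 did not pass and had opposite signs in the sections. Without the block, 1 of the 12 passed, and DESeq2 called 6.

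Genes of some other cell types differed mainly in 1 section. The 4 haemoglobin genes of red blood cells were called higher, but Hba-a1 was at 182 and 1470.0 CPM in the members, against 251 and 309.7 CPM in all other spots, which is -0.49 and 2.14 for sections 1 and 2. All 4 were lower in the members of section 1, and none was called by DESeq2 or without the block. In section 2 the 3 richest members held 59.9% of the members' Hba-a1 UMIs. Acta2, the actin of smooth muscle, was at 57.6 and 146 CPM in the members, against 35.3 and 26.7 CPM in all other spots (0.68 and 2.34), and 7 of 8 mural genes were not called. Of 10 microglial genes, 2 were called higher, with Ctss at 1.37 and 0.30 for sections 1 and 2. Of 10 leptomeningeal genes, 2 were called higher, with Dcn at 0.42 and 1.77, and Lum was at 0 in the members of section 1. Olig2 alone of 6 genes of oligodendrocyte precursors was called higher, with 1.27 and 0.27 for sections 1 and 2, and it was not called by DESeq2 or without the block. Neither were the microglial and leptomeningeal genes. None of the 9 endothelial genes was called by edgeR or DESeq2 (median 0.18, 1 at an unadjusted p under 0.05).

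**Figure D4:**
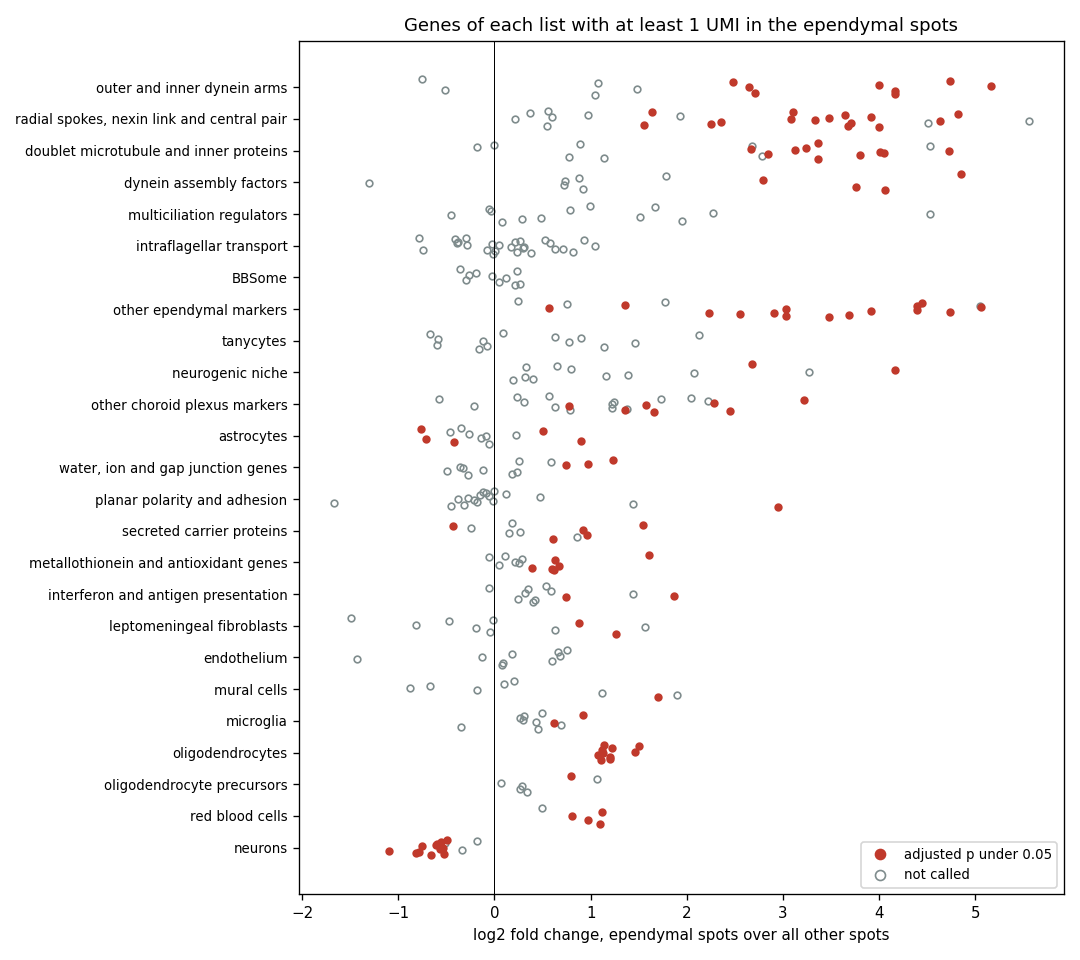
Log2 fold change, members over all other spots, of each tested gene with at least 1 UMI in the members, by list (1 point per gene, filled where the adjusted p was under 0.05). The 4 axoneme lists and the other ependymal markers reach the highest values, oligodendrocyte genes lie together near their median of 1.17 and neuronal genes near -0.56.

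RNA of choroid plexus genes remained in the members after the choroid plexus spots had been taken out. Whether it came from choroid plexus epithelium or from ependymal cells was not tested. Of 21 further choroid plexus genes, 7 were called higher in the members than in all other spots, a group that includes the choroid plexus spots (median 1.24). Together they stood at 8626 and 10779 CPM in the members, against 2881 and 3166 CPM in all other spots, and none was at 0 in both sections' members. Ttr, the transthyretin gene of choroid plexus epithelium, was at 7232 and 9529 CPM in the members, against 2322 and 2708 CPM in all other spots (1.66 ± 0.11, edgeR adjusted p = 5.39e-51). Ttr was unevenly spread, with 50.5% and 38.4% of the members' UMIs in the 3 richest members, and it was also read in 2992 of 3000 and 2499 of 2501 other spots. Ecrg4, a secreted peptide gene of that epithelium, was at 109 and 106 CPM in the members, against 22.7 and 15.6 CPM in all other spots (2.45 ± 0.24).

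Members with at least 2 UMIs of the 6 choroid plexus genes were therefore set beside those with 0 or 1, a split made after the data were seen. The split also follows depth, with a median of 13353 and 14230 UMIs per spot in the members with at least 2, against 8507.5 and 9817.5 UMIs in those with 0 or 1. Ttr stood at 9649 and 11763 CPM in members with at least 2 choroid plexus UMIs and at 3480 and 3531 CPM in the 16 and 10 members with fewer, against 2322 and 2708 CPM in all other spots. In the members with fewer, the 897 and 961 CPM of the axoneme genes lay above the 268 and 304 CPM of all other spots, in both sections. With only those 26 members in the test, 133 genes were at least 2-fold higher and 81 lower, and 1, 1, 1 and 0 genes of the 4 axoneme lists were called, on 116 and 111 UMIs. All 10 oligodendrocyte genes were still called.

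**Figure D5:**
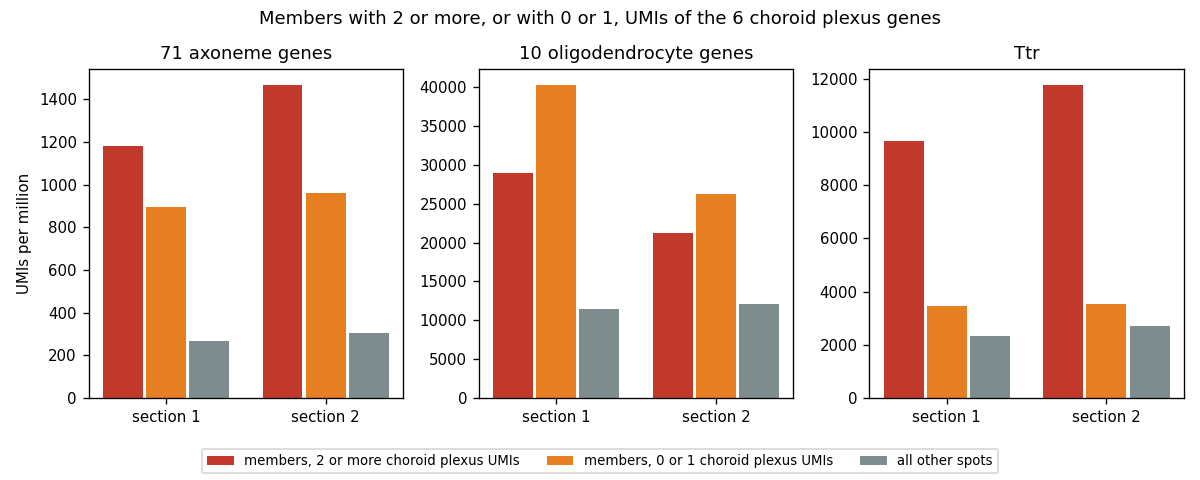
Summed levels, in CPM, of the axoneme genes, the oligodendrocyte genes and Ttr in members with at least 2 choroid plexus UMIs, in members with 0 or 1 and in all other spots of each section (bars, 1 sum each, no error bars). Axoneme genes stand at 897 and 961 CPM in the members with 0 or 1, and Ttr at 3480 and 3531 CPM.

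The members were then compared with the choroid plexus spots, the group most like them, in a fit of 6 sums with 2 residual degrees of freedom. Of 8875 genes tested, 453 (5.1%) were called, and 132 (1.49%) were higher in the members and 321 (3.62%) lower, of which 27 (0.304%) and 221 (2.49%) differed at least 2-fold. Without TMM factors 315 genes were called higher and 231 lower, so the balance of calls turned round with the scaling, 94 and 173 genes differed at least 2-fold, and the median of all genes moved to 0.18, against 0.02 with them. None of the 31 axoneme genes tested was called by edgeR or DESeq2 (median -0.19, 3 lower at an unadjusted p under 0.05). Rsph1 was at 78.8 and 98.6 CPM in the members and 88.7 and 86.8 CPM in the choroid plexus spots, a log2 difference of -0.15 ± 0.29. A missed threshold does not show that the groups are alike, but the cilium genes did not separate them at this depth.

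The groups had been chosen on choroid plexus genes, so lower levels of other genes of that epithelium follow from the choice. All 19 tested genes of the list were called lower (median -3.17). Ttr was at 7232 and 9529 CPM in the members, against 105550.0 and 100160.0 CPM in the choroid plexus spots (-3.79 ± 0.09). Sostdc1, a secreted signalling antagonist, was at 21.2 and 16.4 CPM, against 198 and 184 CPM (-3.53 ± 0.32), and Ace, the angiotensin-converting enzyme, was at 24.2 and 39.9 CPM, against 287 and 297 CPM (-3.32 ± 0.24). Cldn2, a tight junction gene, had a log2 fold change of -4.60 ± 0.50 on 2 and 2 UMIs in the members, the largest fall among called genes with at least 100 CPM in the choroid plexus spots and 1 sign in both sections.

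Some genes listed for other cells were also lower in the members than in the choroid plexus spots. Igfbp2, a growth factor binding protein listed with the leptomeninges, was at 99.98 and 146 CPM in the members, against 1064 and 700.2 CPM in the choroid plexus spots (-2.92 ± 0.20). Slc7a10, an amino acid carrier listed with astrocytes, was at 33.3 and 44.6 CPM in the members, against 149 and 163 CPM in the choroid plexus spots (-2.14 ± 0.25). Clu was at 2063 and 2156 CPM in the members, against 2420 and 2429 CPM in the choroid plexus spots (-0.36 ± 0.09). Slc12a2 was at 194 and 157 CPM, against 304 and 302 CPM (-0.96 ± 0.16). Of the 9 secreted carrier genes tested here, 2 were called higher and 1 lower. The water, ion and gap junction list had 1 higher and 2 lower, and the metallothionein and antioxidant list 3 higher and 5 lower. Mia and Pltp of the ependymal list were lower too, by -0.95 ± 0.24 and -0.61 ± 0.14. Of the 16 genes of that list tested here, 2 were called higher, 2 lower and 12 not at all. Among the 12, Vim was at 188 and 197 CPM in the members and 170 and 98.6 CPM in the choroid plexus spots. Cd24a, also not called, was at 112 and 96.3 CPM in the members and 66.1 and 48.5 CPM in the choroid plexus spots.

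Genes higher in the members than in the choroid plexus spots included Thbs4 and genes of astrocytes and oligodendrocytes. Thbs4 was at 39.4 and 25.8 CPM in the members, against 7.55 and 4.41 CPM in the choroid plexus spots (2.30 ± 0.58, edgeR adjusted p = 0.0206). Nnat, the neuronatin gene, was at 454 and 688 CPM, against 269.9 and 324 CPM (0.78 ± 0.13), and S100b was at 318 and 291 CPM, against 191 and 171 CPM (0.60 ± 0.16). DESeq2 did not call Thbs4 here and called 1 of the further ependymal genes higher. It called 3 astrocyte and 8 oligodendrocyte genes higher and no haemoglobin gene. Of 12 astrocyte genes, 5 were higher and 1 lower, with Slc1a3 at 258 and 218 CPM in the members, against 108 and 118 CPM in the choroid plexus spots (0.90 ± 0.17). Of 10 oligodendrocyte genes, 9 were higher (median 0.87), and none of the 15 neuronal genes was called by edgeR or DESeq2 (median 0.21, 2 higher at an unadjusted p under 0.05). Among the 8 largest rises by the naming rule, Litaf was at 197 and 134 CPM in the members, against 62.3 and 41.2 CPM in the choroid plexus spots (1.52 ± 0.22), and the neural transcription factor gene Pou3f3 was at 90.9 and 77.5 CPM, against 32.1 and 27.9 CPM (1.33 ± 0.28). Of the others, 3 were haemoglobin genes, which were several times higher in members of section 2 than of section 1, and Ctss, Plekhh1 and Rnf141 had the larger log2 fold change in section 1, a difference that was not tested.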

How the data were processed

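RNA was measured in 2 Visium sections. As deposited, the values were raw UMI counts for each spot, not normalized. Per the file headers the counts came from Space Ranger 1.2.2 (section 1) and 2.0.1 (section 2), and the submitters' processing notes give 2.0.1 and mm10 for each. The annotation release was not stated in those sources. Spot positions were not used.

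Members, gene lists and tests were chosen with earlier results of these data known. Spots under 500 UMIs were left out (137 in section 1, median 104 UMIs, and 2 in section 2). Doublets were not called in spots. UMIs of all spots of a group were added up within each section, because replication lies between sections. The sums went into edgeR 4.0.16 under R 4.3.3, using TMM, filterByExpr, the section as a block and quasi-likelihood tests. The block pairs sums of the same library. The 11 rule genes stayed in the totals and got no test. Sums of both groups share a section's processing. CPM are counts scaled to equal totals. SE is the log2 fold change divided by the square root of F. The steps were tested on simulated data.

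Genes named were the 20 largest rises (at least 30 UMIs in the members of each section) and 10 largest falls (at least 100 CPM in the other spots of each section) with 1 sign in both sections, 8 of each against choroid plexus spots, and up to 4 called and 2 uncalled genes of each list. Not all of them are described, and some are not reported here. Alternatives were DESeq2 1.42.0, other scalings and filters, other member rules, no block and sections left out. Python 3.11.15 was used for sums and figures.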

Additional observations from a re-analysis of the deposited data

How the results depend on the processing

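Against all other spots, 402 genes were at least 2-fold higher in the members and 112 lower. The replicate block pairs the 2 sums of a section, and without it these counts were 203 and 8. With at least 10 UMIs required in each sum they were 248 and 6, on 5507 genes, and with the other spots thinned to the members' depth 202 and 33. With only members under 2 choroid plexus UMIs, an alternative chosen after seeing the data, as was requiring 3 marker UMIs, they were 133 and 81. DESeq2 gave 5 lower, no TMM factors 64, 60 members per section 56, and 60 choroid plexus spots taken out 68. Leaving out the members of either section gave 0 to 22 higher and 0 lower.

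Against choroid plexus spots, 27 were higher and 221 lower. The higher count was 17 with DESeq2, 94 without TMM factors, 14 with 10 UMIs in each sum, 5 without the block and 57 with at least 5000 UMIs per spot. The lower count was 96 with 10 UMIs in each sum and 137 without the block. Leaving out the members of a section gave 12 to 123 higher and 106 to 238 lower.

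Of 93 named called genes, DESeq2 kept the direction and call of 64, no TMM factors 90 and no block 51. With the members of section 1 or section 2 left out, the log2 fold change of Hbb-bt was -0.73 to 1.99, the log2 fold change of Hba-a1 was -0.68 to 2.29, the log2 fold change of Hba-a2 was -0.98 to 2.17 and the log2 fold change of Hbb-bs was -0.42 to 1.82. In section 1 alone these 4 values were -0.82, -0.49, -0.82 and -0.53. The log2 fold change of Ppp1r1b was -0.0496 with 60 choroid plexus spots taken out, -0.0105 with members under 2 choroid plexus UMIs and -0.0150 in section 2 alone. The filter of 10 UMIs tested fewer genes, and for the other settings the cause was not tested. Depth limits the low genes, since 52 of the 402 higher genes had under 10 UMIs in the members.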

Other observations

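Genes of brain regions were read as a description of the surroundings of the members, since spot positions were not used. Of 8 striatal genes, Ppp1r1b, a dopamine signalling gene of striatal neurons, was called higher. It was at 148 and 153 CPM in the members, against 49.0 and 143 CPM in all other spots, and the sections alone gave 1.57 and -0.02. The choroid plexus spots held more Ppp1r1b than the members, at 242 and 279 CPM, a difference that was not called. Rgs9 gave 1.76 and -0.03 and was not called. In section 1, 6 of the 30 members and 9 of the 30 choroid plexus spots lay among the top 5% of spots for the striatal list. In section 2 none of either group did. Of 7 isocortical genes, 2 were called lower, among them Rasgrf2 at 36.4 and 47.0 CPM in the members, against 85.6 and 88.9 CPM in all other spots (-1.13 ± 0.25). Of 10 hypothalamic genes, 2 were called lower, with the secretory granule gene Resp18 at 103 and 228 CPM in the members, against 262 and 316 CPM in all other spots (-0.89 ± 0.16). Of the thalamic list 1 of 6 genes was lower, of the cerebellar list 1 of 7 and of the midbrain and hindbrain list 1 of 4, the last being Slc6a3 with 0 UMIs in the members of both sections. Of all genes tested, 3.94% were called lower, and 1 or 2 calls in lists this short do not place the members. DESeq2 called 1 hypothalamic gene and none of the other regional genes, and without the block 1 isocortical gene alone was called. None of 7 genes of the medial habenula was called by edgeR or DESeq2 (1 at an unadjusted p under 0.05). None of the 5 dentate gyrus and 6 hippocampal genes was called by edgeR or DESeq2 (0 and 2 at an unadjusted p under 0.05).

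The 137 and 2 spots left out for having under 500 UMIs in sections 1 and 2 held 0 UMIs of the 5 ependymal genes.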
